A study of Mus musculus with 5 samples.

Results

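Fabp5 encodes an intracellular carrier of long-chain fatty acids. It was examined here with 9 genes that make fatty acids or control their synthesis, on arrays of MLE-15 cells that carried an shRNA against Grhl2 or a non-silencing shRNA. The genes were taken by symbol: every probe set whose platform annotation names exactly 1 gene, one of Fabp5, Acaca, Fasn, Scd1, Scd2, Elovl1, Elovl6, Srebf1, Ppard and Pparg. They had 12 probe sets among the 21640 with a single symbol, and all 10 genes were among the 14979 tested. Fabp5 was chosen by its measured difference, the largest fall of all genes in this same comparison, and the set around it was drawn up with those results known. The members' differences are therefore given as descriptions, without a p-value of their own. Calls among the members are counted below, but nothing is read from them.

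MLE-15 cells are epithelial and come from mouse lung tumours that arose in mice with an SV40 large tumour antigen transgene under the human surfactant protein C promoter, so every culture carried that transgene. The first group received a GFP-marked, puromycin-selected lentivirus with 1 hairpin against Grhl2, a Grainyhead-like transcription factor of epithelia, and had 3 independent transductions. The second received the same kind of virus with a non-targeting hairpin and had 2. Cells were exposed to virus with 5 µg/ml polybrene for 16 h at a multiplicity of infection of 50. They were then kept in 5 µg/ml puromycin for 6 days. A second hairpin was not analysed here. These are cultures of 1 cell line, so p-values measure the spread between transductions of that line.

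Cells build fatty acids from acetyl-CoA. Acetyl-CoA carboxylase makes malonyl-CoA, fatty acid synthase joins these units into palmitate, and elongases and desaturases lengthen the chain and add double bonds. The transcription factor SREBP-1, encoded by Srebf1, drives many of these genes, and fatty acids in turn are ligands of the nuclear receptors PPARδ and PPARγ. Alveolar type II cells, from which MLE-15 cells are modelled, use the pathway to supply the phospholipids of surfactant, and FABP5 binds long-chain fatty acids and can carry them to PPARδ.

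Values are log2 signals after robust multi-array averaging (RMA), and differences are Grhl2 shRNA minus control on that scale with the moderated standard error (SE) of limma. Median signal lay between 5.29 and 5.32 on the 5 arrays. Grhl2 itself (probe set 10423770) had log2 signals of 7.43, 7.43 and 7.60 on the Grhl2 shRNA arrays, against 7.77 and 7.68 on the control arrays. The shRNA arrays kept 85.0% of the control signal, a log2 difference of −0.24 (SE 0.065) that missed the threshold (limma adjusted p = 0.082). Over the alternatives its adjusted limma p ran from 0.023 to 0.32, and it passed with the filter at the 50th percentile (0.032), with a trended robust prior (0.023) and without shRNA replicate 3 (0.047). Of 12 markers of lung epithelium and type II cells, 11 lay above the filter that left out dim probe sets, and Lamp3 did not. Among them Napsa, an aspartic protease of type II cells, rose by 0.36 and Sftpd, surfactant protein D, fell by 0.33 (limma adjusted p = 0.01 and 0.021), and the other 9 did not pass. Marker lists of other cells averaged log2 signals of 5.57 to 5.66 on the shRNA arrays and 5.51 to 5.60 on the control arrays for adipocytes, 5.41 to 5.51 and 5.36 to 5.37 for fibroblasts, 4.67 to 4.77 and 4.56 to 4.61 for endothelium, and 4.57 to 4.63 and 4.53 to 4.54 for leukocytes. Of these, 7 of 8, 5 of 6, 3 of 5 and 6 of 9 markers lay above the filter. In each list 1 marker rose and 0 fell, beside 2.86% and 3.52% of all genes. These were Fabp4, up by 0.38, Dcn by 0.70, Tek by 0.91 and Tyrobp by 0.28. The other endothelial markers were all below 0: Cdh5 −0.07, Emcn −0.02, Kdr −0.04 and Pecam1 −0.15. Among the other fibroblast markers, Col1a1, Col1a2, Col3a1 and Pdgfra lay between −0.07 and −0.0002, and Lum at 0.04. The other adipocyte markers lay between −0.13 (Retn) and 0.11 (Plin1), and the other leukocyte markers between −0.06 (Cd68) and 0.17 (Lyz2). Adipor2 averaged 10.39 on the shRNA arrays and 10.34 on the control arrays, far above the rest of the adipocyte list, and so raised the mean of that list. Defining markers lay on both sides of the filter, with Plin1, Lpl, Col1a1, Col1a2, Col3a1, Pdgfra, Cdh5, Pecam1, Cd68, Csf1r and Marco above it and Adipoq, Lum, Kdr, Emcn, Ptprc, Itgam and Adgre1 below. The part of these markers in the results below was not tested. Fewer cells with a transcript and less of it per cell cannot be told apart in bulk RNA.

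Fabp5 was lower on every Grhl2 shRNA array than on either control array, by both of its probe sets. The brighter one, 10585699, had log2 signals of 6.64, 6.37 and 6.65 in Grhl2 shRNA cells, against 8.28 and 8.08 in control cells. The dimmer one, 10490838, had 6.03, 5.97 and 6.31 in Grhl2 shRNA cells, against 7.55 and 7.52 in control cells. In both, the 5 arrays fell into their groups without overlap, and arrays of a group lay much closer to each other than to the other group.

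By the brighter probe set Fabp5 averaged 6.55 ± 0.16 in Grhl2 shRNA cells (SD, n = 3) and 8.18 ± 0.14 in control cells (SD, n = 2). The log2 difference was −1.63 (SE 0.10), 3.09-fold lower, so 32.3% of the control signal was left, with a 95% interval of 27.4 to 38.1%. The dimmer probe set averaged 6.11 ± 0.18 in Grhl2 shRNA cells and 7.54 ± 0.02 in control cells, a log2 difference of −1.43 (SE 0.10) that left 37.2% (95% interval 31.5 to 43.9%). These intervals take no account of Fabp5 having been picked for its size. Over the 6 possible pairs of 1 shRNA and 1 control array, the difference ran from −1.92 to −1.43 by the brighter and from −1.58 to −1.20 by the dimmer probe set. The next largest falls among all genes tested were those of Fgb, with a log2 difference of −1.40 (SE 0.13), and Hapln1, with −1.23 (SE 0.058). RefSeq (assembly GRCm38.p6) lists 1 further gene named after Fabp5, the pseudogene Fabp5l2. It had 0 single-symbol probe sets here. Fabp5 lies on chromosome 3. Of the 10 single-symbol probe sets with IDs nearest to that of the dimmer probe set, 10 belong to genes on chromosome 3, and of the 10 nearest to that of the brighter, 10 belong to genes on chromosome 9. The annotation used here gives no position for a probe set, and whether the brighter one measures Fabp5 itself or RNA of a copy was not tested. The value that does not rest on it is that of the dimmer, −1.43.

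**Figure D1:**
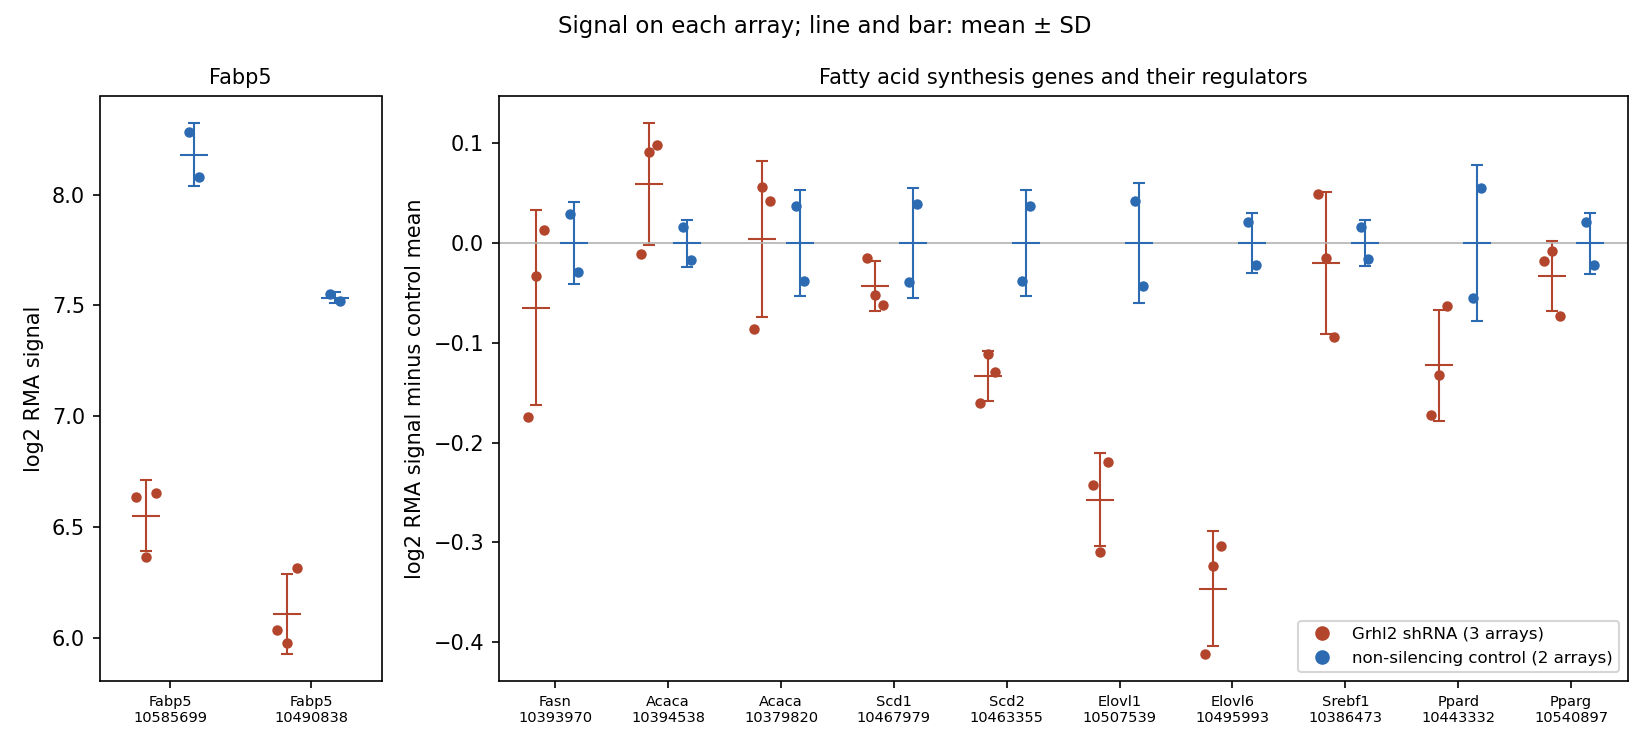
Log2 RMA signal on each array, with 3 Grhl2 shRNA arrays in red to the left of 2 control arrays in blue, and mean ± SD as line and bar. The left panel shows both Fabp5 probe sets as measured, with shRNA arrays at 5.97 to 6.65 and control arrays at 7.52 to 8.28; the right panel shows the other probe sets relative to their control mean on a much narrower scale, where Elovl1, Elovl6, Scd2 and Ppard are the genes whose groups do not overlap.

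The enzymes that start and complete synthesis differed little between the groups. Fasn (10393970), the synthase that makes palmitate, had log2 signals of 10.41, 10.55 and 10.60 in Grhl2 shRNA cells, against 10.61 and 10.55 in control cells. The groups overlapped, and only shRNA replicate 1 stood below the rest. Its log2 difference was −0.06 (SE 0.063, 95% interval −0.21 to 0.08) and −0.01 without that array, so a fall to 86.2% or a rise to 106% of control was within its error.

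Acaca (10394538), the carboxylase that supplies malonyl-CoA, had 9.37, 9.47 and 9.48 in Grhl2 shRNA cells, against 9.40 and 9.36 in control cells. The groups overlapped here too, and the log2 difference was 0.06 (SE 0.050, 95% interval −0.06 to 0.18). It was the only member with a value above 0. A second Acaca probe set (10379820) gave 0.004 (SE 0.061) with overlapping groups.

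Of the stearoyl-CoA desaturases, which put the first double bond into saturated chains, Scd2 was slightly lower on all shRNA arrays and Scd1 was not. Scd2 (10463355) had log2 signals of 11.59, 11.64 and 11.62 in Grhl2 shRNA cells, against 11.71 and 11.78 in control cells. Its log2 difference was −0.13 (SE 0.044), which left 91.2% of the control signal (95% interval 84.8 to 98.1%). Scd1 (10467979) had 10.96, 10.92 and 10.91 in Grhl2 shRNA cells, against 10.93 and 11.01 in control cells. Its groups overlapped, and its log2 difference was −0.04 (SE 0.045, 95% interval −0.15 to 0.06).

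Both elongases of the set were lower in Grhl2 shRNA cells without overlap, and after Fabp5 they had the largest differences of the set. Outside the set, Elovl4, Elovl5 and Elovl7, chosen after their values were seen, had differences of 0.02, 0.02 and −0.12. None of them passed (limma adjusted p = 0.90, 0.84 and 0.14), and the groups overlapped in Elovl4 and Elovl5 but not in Elovl7. Elovl6 (10495993), which extends palmitate to stearate, had log2 signals of 4.39, 4.48 and 4.50 in Grhl2 shRNA cells, against 4.82 and 4.78 in control cells. It averaged 4.45 ± 0.06 in Grhl2 shRNA cells (SD, n = 3) and 4.80 ± 0.03 in control cells (SD, n = 2), a log2 difference of −0.35 (SE 0.049) that left 78.7% of the control signal. Its signal lay only a little above the filter at 4.22, so Elovl6 was dim on every array.

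Elovl1 (10507539), which extends saturated chains to very long ones, had 9.71, 9.65 and 9.74 in Grhl2 shRNA cells, against 10.00 and 9.91 in control cells. It averaged 9.70 ± 0.05 in Grhl2 shRNA cells and 9.96 ± 0.06 in control cells, a log2 difference of −0.26 (SE 0.050) that left 83.7% (95% interval 77.2 to 90.7%). The smallest gap between any shRNA and any control array was −0.18 for Elovl1 and −0.28 for Elovl6.

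The promoter windows of Elovl6, Elovl1 and Fasn are shown because Elovl6 and Elovl1 were lower together with Fabp5 while Fasn was not separated. They are RefSeq sequences of GRCm38.p6, from 250 bases before to 50 after the annotated start, and capitals mark each CCAAT box, the site bound by NF-Y, on either strand. Elovl6 lies at chr3:129532136-129532435 on the plus strand, Elovl1 at chr4:118427843-118428142 on the plus strand (the first of 2 annotated starts) and Fasn at chr11:120824498-120824797 on the minus strand, all read 5′ to 3′ along the gene.
Elovl6: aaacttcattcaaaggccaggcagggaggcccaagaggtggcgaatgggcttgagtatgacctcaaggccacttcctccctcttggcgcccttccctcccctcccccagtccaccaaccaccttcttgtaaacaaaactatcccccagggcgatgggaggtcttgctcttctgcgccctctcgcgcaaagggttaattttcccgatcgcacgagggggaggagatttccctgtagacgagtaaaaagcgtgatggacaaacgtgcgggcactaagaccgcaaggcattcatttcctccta
Elovl1: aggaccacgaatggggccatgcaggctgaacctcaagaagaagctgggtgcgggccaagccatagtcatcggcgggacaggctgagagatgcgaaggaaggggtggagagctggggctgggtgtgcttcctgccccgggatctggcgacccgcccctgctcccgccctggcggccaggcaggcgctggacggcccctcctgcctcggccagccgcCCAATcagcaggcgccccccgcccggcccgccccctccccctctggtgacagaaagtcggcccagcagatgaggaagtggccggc
Fasn: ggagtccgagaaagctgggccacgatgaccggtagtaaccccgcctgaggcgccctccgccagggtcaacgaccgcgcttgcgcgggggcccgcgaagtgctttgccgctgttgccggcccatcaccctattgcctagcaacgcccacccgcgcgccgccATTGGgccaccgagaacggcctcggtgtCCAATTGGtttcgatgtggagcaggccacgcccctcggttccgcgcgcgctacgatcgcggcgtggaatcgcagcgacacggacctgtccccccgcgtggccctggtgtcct

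RefSeq windows were found for 7 of the 10 genes, 12 windows in all. They were searched on both strands for 3 motifs: AACCNGTT for Grainyhead-like factors, TCACNCCAC for sterol regulatory elements, and CCAAT. The Grainyhead-like motif was in 0 of the 12, against 2.09% of all 32851 windows, and the sterol motif in 0, against 1.24%. The CCAAT box was in 7 of 12, against 37.4% of all windows. Fasn held 3, of which the 2 at −62 and −59 from the start overlap on opposite strands. Elovl1 held 1 at −35 in its first window and 0 in its second, and Elovl6 held 0. A match is a description of the letters only, and the other 3 genes, Fabp5, Scd1 and Scd2, are named only.

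Among the regulators, Srebf1 and Pparg overlapped between groups and Ppard did not, by a narrow margin. Srebf1 (10386473), the gene of SREBP-1, had log2 signals of 9.66, 9.60 and 9.52 in Grhl2 shRNA cells, against 9.63 and 9.60 in control cells. Its log2 difference was −0.02 (SE 0.053, 95% interval −0.14 to 0.10), and 3 of 6 pairs of arrays were lower in shRNA cells. It kept 98.6% of the control signal. This is the level of Srebf1 mRNA only, and the activity of SREBP-1 was not tested.

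Ppard (10443332), the gene of the receptor to which FABP5 carries ligands, had 8.08, 8.12 and 8.19 in Grhl2 shRNA cells, against 8.20 and 8.31 in control cells. All 6 pairs of arrays were lower in shRNA cells, but the closest differed by only −0.008. The log2 difference was −0.12 (SE 0.054, 95% interval −0.25 to 0.006), and −0.07 without control replicate 2. Pparg (10540897), the receptor of adipocyte differentiation, had 9.96, 9.97 and 9.90 in Grhl2 shRNA cells, against 9.99 and 9.95 in control cells, a log2 difference of −0.03 (SE 0.044, 95% interval −0.14 to 0.07).

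**Figure D2:**
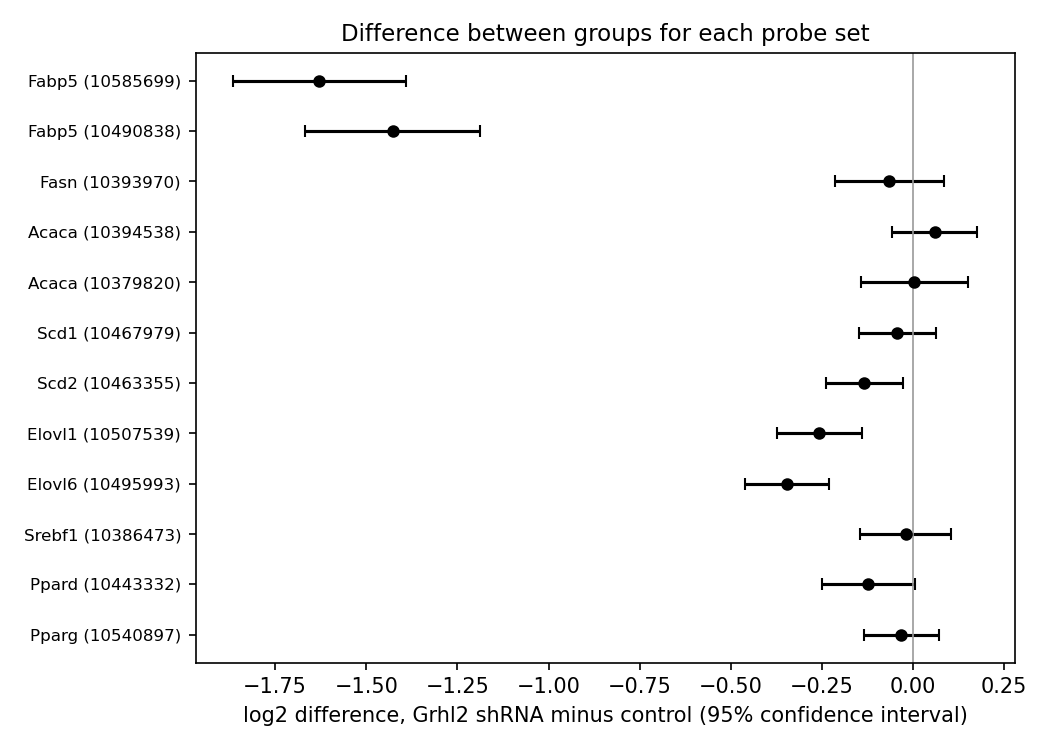
Log2 difference, Grhl2 shRNA minus control, for each of the 12 probe sets with its 95% confidence interval, from limma with 3 and 2 arrays. Both Fabp5 probe sets lie at −1.63 and −1.43, Elovl6 and Elovl1 at −0.35 and −0.26, and the others between −0.13 and 0.06.

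Counted over the set, 9 of 10 genes had values below 0 and 1 above, with a median log2 difference of −0.09, against 0.002 over all genes tested. Groups did not overlap in 5 genes, all lower in shRNA cells (Fabp5, Scd2, Elovl1, Elovl6 and Ppard), beside 20.5% of all genes lower without overlap, 21.0% higher and 41.5% either way. The threshold was a limma adjusted p under 0.05 over all 14979 genes, which 3 members passed, all lower (Fabp5, Elovl1 and Elovl6), beside 6.38% of all genes, 3.52% lower and 2.86% higher. The members were chosen on this comparison, so nothing is read from these counts. Without control replicate 1 or control replicate 2, 1 member passed, and without any of the 3 shRNA replicates, 2 did.

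Genes of the same pathway beyond these 10 were taken from a list drawn up by function. This list and those below were drawn up with earlier results of these data known. Of 21 further tested genes of synthesis, elongation and desaturation, 3 fell, 0 rose and 18 did not pass, so 14.3% passed in the lower direction, beside 3.52% of all genes lower and 2.86% higher. Acss2 (10477649), which makes acetyl-CoA from acetate, had log2 signals of 6.71, 6.70 and 6.76 in Grhl2 shRNA cells, against 7.14 and 7.15 in control cells. The arrays of each group lay close together, and the gene fell by 0.43 (SE 0.042, limma adjusted p = 0.0051). Acacb (10524460), the carboxylase whose malonyl-CoA restrains mitochondrial fatty acid entry, fell by 0.24 (SE 0.055, limma adjusted p = 0.049). Fads2 (10465895), a desaturase of polyunsaturated chains, fell by 0.19 (SE 0.040, limma adjusted p = 0.041). Of the 21, 14 had values below 0 and 7 above, with a median of −0.07, and 11 were lower without overlap (52.4%) and 0 higher, beside 20.5% and 21.0% of all genes. Fads3, with −0.22, and Acly, the citrate lyase that supplies cytosolic acetyl-CoA, with 0.03, did not pass (limma adjusted p = 0.07 and 0.74) and were chosen after their values were seen. The call of Acss2 ended without control replicate 2 (limma adjusted p = 0.053). That of Acacb held only without shRNA replicate 3 (limma adjusted p = 0.047), and that of Fads2 was lost whichever array was left out (limma adjusted p = 0.079 to 0.19).

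Among 15 genes that control lipogenic transcription, Srebf2 fell, Cebpb rose and 13 did not pass, with a median of −0.03. That is 6.67% in each direction, beside 3.52% of all genes lower and 2.86% higher. Srebf2 (10425695), the gene of the sterol-responsive SREBP-2, had 9.30, 9.20 and 9.18 in Grhl2 shRNA cells, against 9.51 and 9.45 in control cells. All 3 shRNA arrays lay below both controls, and Srebf2 fell by 0.26 (SE 0.053, limma adjusted p = 0.038), while the difference of its paralog Srebf1 was −0.02. Cebpb (10478890), a factor of adipocyte differentiation and of epithelial stress responses, rose by 0.21 (SE 0.045, limma adjusted p = 0.044). The call of Srebf2 held without shRNA replicate 1 only (limma adjusted p = 0.042, and 0.088 to 0.18 without each other array), and that of Cebpb was lost whichever array was left out (limma adjusted p = 0.059 to 0.19).

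Of 15 genes of fatty acid binding, uptake and activation, 2 rose, 0 fell and 13 did not pass, with a median log2 difference of 0.004. Of all genes, 2.86% rose and 3.52% fell. An unadjusted limma p under 0.05 was found for 5 of the 15, beside 23.1% of all genes. Fabp4 (10497265), the adipocyte and macrophage family member, had log2 signals of 5.91, 5.89 and 6.00 in Grhl2 shRNA cells, against 5.52 and 5.59 in control cells. It rose by 0.38 (SE 0.051, limma adjusted p = 0.012), the opposite direction to Fabp5. Vldlr (10462281), a receptor for triglyceride-rich lipoproteins, rose by 0.27 (SE 0.048, limma adjusted p = 0.025). Fabp3 (10371502), the heart-type carrier, chosen after its value was seen, had a difference of 0.04 (limma adjusted p = 0.87). Fabp4 missed the threshold without control replicate 1 or 2 (limma adjusted p = 0.083 and 0.065), and Vldlr passed only without shRNA replicate 1 (limma adjusted p = 0.037, and 0.063 to 0.14 without each other array).

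PPAR partners and targets were 15 in number, of which 1 rose, 0 fell and 14 did not pass, so 6.67% passed, beside 6.38% of all genes, and the median was 0.009. Fgf21 (10563344), a secreted hormone induced through PPARα, rose by 0.27 (SE 0.052, limma adjusted p = 0.032). Ppargc1b (10459193), a coactivator of these receptors, had the second largest difference, 0.24, and did not pass (limma adjusted p = 0.056), with a value of 0.16 without control replicate 2. The call of Fgf21 held only without shRNA replicate 3 (limma adjusted p = 0.044, and 0.059 to 0.15 without each other array).

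Of 25 oxidation genes tested with limma, 0 rose and 0 fell, beside 2.86% and 3.52% of all genes, and 2 had an unadjusted p under 0.05, beside 23.1% of all genes. Acaa2 (10456699), a thiolase, and Cpt1a (10460157), which admits fatty acids to mitochondria, had the largest differences, −0.17 and −0.16 (limma adjusted p = 0.24 and 0.17), and the list median was −0.002. Without shRNA replicate 1 the value of Acaa2 was −0.10.

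Of 28 tested genes of glycerolipid and phosphatidylcholine synthesis and lipolysis, 2 fell, 1 rose and 25 did not pass, with a median of −0.04. That is 7.14% lower and 3.57% higher, beside 3.52% and 2.86% of all genes. Pcyt1a (10435057), the rate-limiting enzyme of phosphatidylcholine synthesis, had 7.33, 7.31 and 7.34 in Grhl2 shRNA cells, against 7.76 and 7.53 in control cells. The shRNA arrays were nearly equal and the control arrays were not, and Pcyt1a fell by 0.32 (SE 0.068, limma adjusted p = 0.043). Agpat5 (10570573), an acyltransferase, fell by 0.24 and Cept1 (10501051), a choline and ethanolamine phosphotransferase, rose by 0.23 (limma adjusted p = 0.025 for each). The value of Pcyt1a was −0.20 without control replicate 1. Its call held only without control replicate 2 (limma adjusted p = 0.048, and 0.087 to 0.15 without each other array), and Agpat5 and Cept1 were lost whichever array was left out (limma adjusted p = 0.056 to 0.15).

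Over these lists together, each gene counted once, 118 genes were tested, of which 6 fell, 5 rose and 107 did not pass. That is 9.32% past the threshold, beside 6.38% of all genes, and the median log2 difference was −0.01. Groups did not overlap in 30 genes that were lower (25.4%) and 25 that were higher (21.2%), beside 20.5% and 21.0% of all genes.

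**Figure D3:**
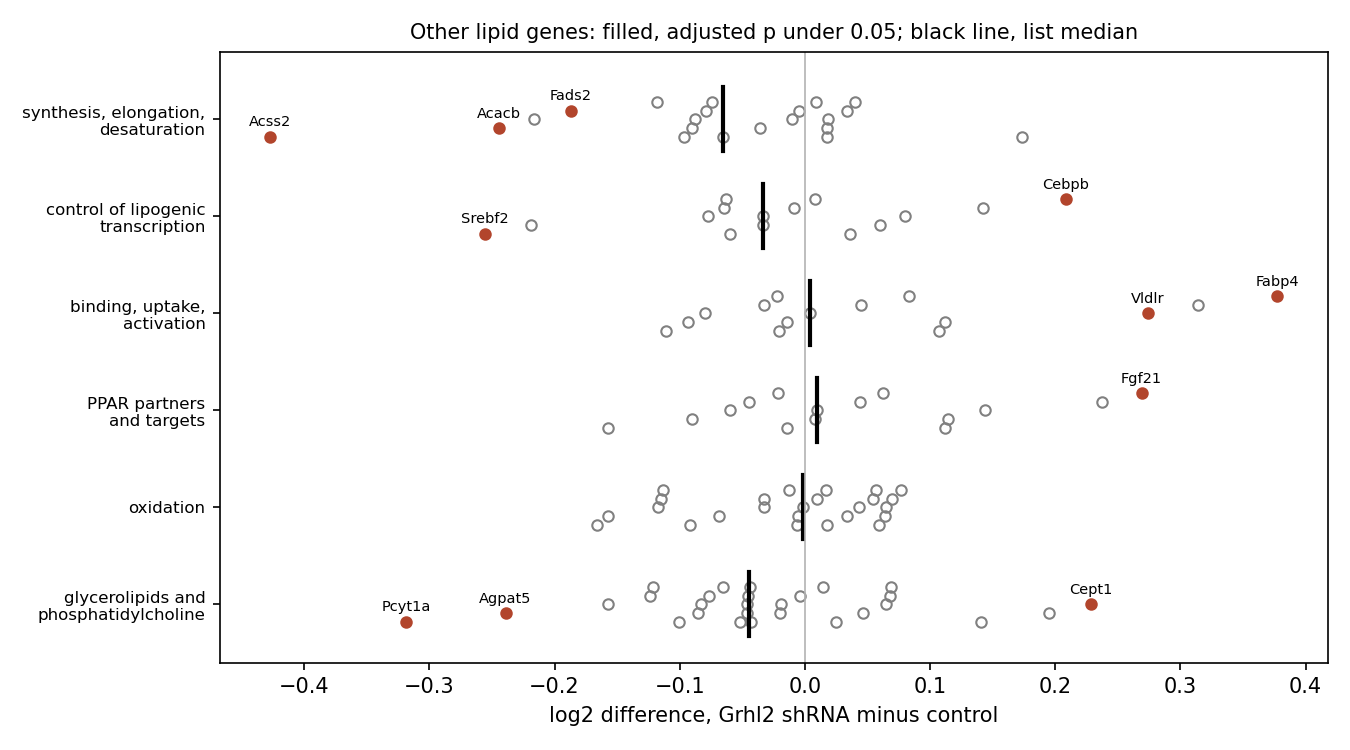
Log2 difference, Grhl2 shRNA minus control, of each tested gene of the 6 lists, with genes past a limma adjusted p of 0.05 filled and named and the list median as a black line. The 3 called genes of synthesis, elongation and desaturation are all lower, from −0.43 to −0.19, and no oxidation gene is filled.

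The genes with array profiles nearest to Fabp5 were sought by the root mean square difference over the 5 arrays between log2 signals centred on each gene's mean, with Fabp5 taken by its brighter probe set. Predicted genes, RIKEN clones, accession-named genes, small RNAs, olfactory and vomeronasal receptors and the other members were left out of this search. The nearest of the rest were Fgb, the fibrinogen beta chain, at 0.21, Hapln1, a link protein of hyaluronan matrix, at 0.23, and Xist, the RNA of X inactivation, at 0.29. Then came Klf12, a transcriptional repressor, at 0.30, and R3hdml at 0.34. Because the measure keeps amplitude, it favours other genes with large falls. Fgb had log2 signals of 5.20, 5.39 and 5.33 in Grhl2 shRNA cells, against 6.95 and 6.46 in control cells. Hapln1 had 6.26, 6.26 and 6.16 in Grhl2 shRNA cells, against 7.52 and 7.39 in control cells. Both were low on all shRNA arrays and high on both controls. Of the other members, Elovl6 was nearest, at 0.64, and Acaca farthest, at 0.84.

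**Figure D4:**
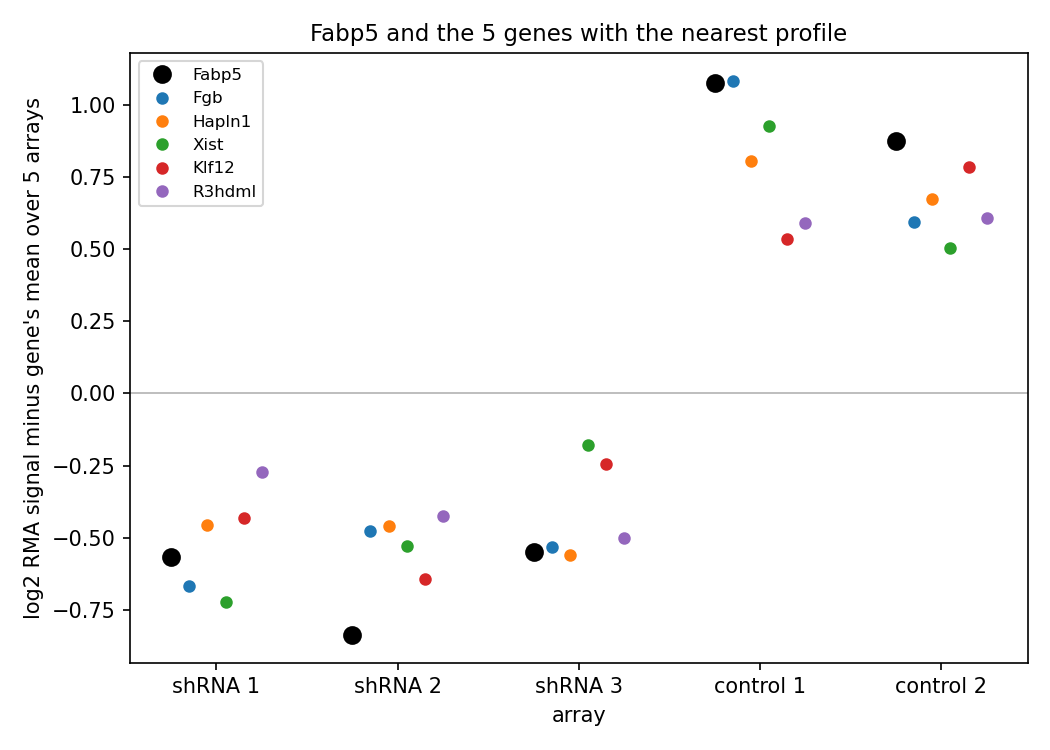
Log2 RMA signal minus each gene's mean over the 5 arrays, for Fabp5 (large black points) and the 5 genes nearest to it among those searched. Predicted genes, RIKEN clones, accession-named genes, small RNAs, olfactory and vomeronasal receptors and the other members were left out. Every gene is below its mean on the 3 shRNA arrays and above it on the 2 control arrays, and Fabp5 spans the widest range between group means.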

How the data were processed

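RNA of 3 Grhl2 shRNA and 2 non-silencing control transductions of MLE-15 cells was labelled from 300 ng and hybridised to whole-transcript arrays, 1 sample per array. The authors deposited 1 table of log2 values for 34760 probe sets, which the submitters' processing notes credit to RMA and Affymetrix Expression Console. Software versions: not given in the sources used here. Base 2 was read from the RMA method and the range of values.

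Platform annotation gave 21640 probe sets 1 symbol, 1321 several and 11799 none. By Entrez ID 21553 matched RefSeq (GRCm38.p6), which changed 0 symbols. Probe sets with a mean log2 signal under 4.22, the 25th percentile, were left out, and the brightest probe set stood for a gene, which gave 14979 genes. The comparison used limma 3.58.1 in R 4.3.3 (lmFit, eBayes; two-sided), with Benjamini-Hochberg adjustment over all genes and a threshold of 0.05. With 3 residual degrees of freedom, the number of arrays limits precision, and the median SE was 0.051.

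The members, gene lists, naming rule and alternatives were chosen with earlier results of these data known. Named were all members, Grhl2, from each list the called genes (up to 6 by size) or the 2 largest differences where fewer than 2 were called, and the 5 nearest profiles. List members without a single-symbol probe set were not analysed here. The fit was tested on simulated arrays with 200 changed genes of 14979 in 10 runs. It recovered 17.8% of log2 changes of 0.25, 90.0% of those of 0.5 and 99.1% of those of 1, and 5.38% of its calls were false. The comparison itself had 956 genes past the threshold, more than were changed in the simulation. The adjusted p depends on how many genes change, so these shares need not hold for the comparison.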

Additional observations from a re-analysis of the deposited data

How the results depend on the processing

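The Fabp5 difference stayed between −1.73 and −1.53 without each array in turn. With the replicate number as a block it was −1.68, the same value as without shRNA replicate 3. No control shares the number of that array, so it adds nothing to the block estimate, which is not a separate check. The one setting that moved the Fabp5 difference by more than 1 SD was the dimmer Fabp5 probe set, also taken where every probe set was tested, with −1.43. Leaving out 1 array moved Elovl6 between −0.37 and −0.31, Elovl1 between −0.30 and −0.21, Ppard between −0.18 and −0.07 and Scd2 between −0.17 and −0.10. Srebf1, with a main value of −0.02, was 0.02 without shRNA replicate 3 and with the block. Counts of calls moved more. Over all genes, 956 passed, 418 with no filter, 1708 with the filter at the 50th percentile, 2034 with a trended robust prior, 1851 at an adjusted p of 0.1, 9 with no moderation and 67 to 493 without 1 array. Of the 11 calls in the fatty acid lists, the counts were 2 with no filter, 18 with the trended robust prior, 0 with no moderation and 1 to 5 without 1 array. With no moderation of the variance, 2870 genes had an unadjusted p under 0.05 by the ordinary t-test of the linear fit. With the replicate block, which leaves fewer residual degrees of freedom, 172 genes and 1 list gene passed. The replicate numbers share no stated source, and same-numbered arrays' deviations correlated at 0.06 and 0.02, so no pairing was assumed. Fits without 1 control array take the lone control to vary like the shRNA arrays. Causes were not tested.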

Other observations

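The protein-coding genes beside Fabp5 in RefSeq order (GRCm38.p6) include other members of its family, and were looked up after the other results were known. Fabp4 (10497265) averaged 5.93 ± 0.06 in Grhl2 shRNA cells (SD, n = 3) and 5.55 ± 0.05 in control cells (SD, n = 2). Impa1 (10497285), a phosphatase of inositol metabolism, averaged 7.84 ± 0.04 in Grhl2 shRNA cells and 7.84 ± 0.03 in control cells, a log2 difference of 0.005 (limma adjusted p = 0.97). Pag1 (10497237), a membrane adaptor on the other side of Fabp5, averaged 5.68 ± 0.19 in Grhl2 shRNA cells and 5.64 ± 0.08 in control cells, a log2 difference of 0.03 (limma adjusted p = 0.89). Pmp2, Fabp9 and Fabp12, also of the family, had mean log2 signals of 3.68, 3.03 and 3.55 in Grhl2 shRNA cells and 3.83, 3.19 and 3.45 in control cells, all under the filter, and were not tested. None of the 3 tested neighbours was lower in Grhl2 shRNA cells.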
